A study of Caenorhabditis elegans with 39 samples.

Results

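The genes described here are 10 genes of germ granules and primordial germ cells in the nematode Caenorhabditis elegans. They are the PGL scaffold genes pgl-1 (ZK381.4) and pgl-3 (C18G1.4), the Vasa-like helicase genes glh-1 (T21G5.3), glh-2 (C55B7.1) and glh-4 (T12F5.3), the granule assembly gene deps-1 (Y65B4BL.2), the Nanos genes nos-1 (R03D7.7) and nos-2 (ZK1127.1), and the MEG genes meg-1 (K02B9.1) and meg-2 (K02B9.2). They were chosen by name as a set of known roles, not by a threshold on their counts, though earlier results of these data were known. All 10 were found among the 44968 features counted in every library.

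Germ granules, called P granules in this worm, are assemblies of RNA and protein at the nuclear surface of germ cells, where transcripts are surveyed by small RNAs. PGL proteins form their scaffold, GLH helicases help to hold them at nuclear pores, and DEPS-1 promotes their assembly and the accumulation of glh-1 mRNA. MEG proteins act on germ granules in the early embryo, and Nanos proteins repress mRNAs in the primordial germ cells. A newly hatched larva holds a pair of primordial germ cells, which stay arrested without food and begin to divide after feeding.

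Messenger RNA was sequenced from whole N2 larvae of the first stage (L1), in the F3 generation after ancestors that had been kept under control conditions or had passed through a short or a long dauer, an arrested alternative larva. The recovered ancestors and the generations between had food, and F3 larvae were collected after 18 h with food or 24 h without it. There were 16 libraries of control descendants (4 fed, 12 starved), 13 after short-term dauer (4 fed, 9 starved) and 10 after long-term dauer (3 fed, 7 starved). Washing with buffer was also repeated more often for fed larvae, so feeding, hours in culture and washing cannot be told apart. All fed libraries were in batch 1, as were 5, 5 and 3 starved libraries of the 3 ancestries, and the remaining 15 starved libraries formed batch 2. The labels call the replicates biological but do not say which came from separate cultures of ancestors, so p-values measure the spread between these libraries. Long-term dauer replicates of batch 1 were labelled LC3_40d, LC3_49d and LC4_49d, and whether those sharing LC3 were independent was not tested.

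Total gene counts were 20950821 to 30313127 in batch 1 and 8836723 to 13740490 in batch 2, and the 10 genes together took 1960 to 5134 and 603 to 1422 of these reads. In batch 1, 3 libraries stood apart. The library labelled starved LC4_49d of long-term dauer descendants was set beside the mean profiles of the other ancestries, over genes that passed a filter on low counts. It was closer to the mean of their fed libraries (Pearson r = 0.993) than to that of their starved ones (r = 0.916). In the starved LC14 library of short-term dauer descendants 12.6% of reads fell outside genes, against 2.49% to 4.74% in the other starved libraries of batch 1, and the fed LC12 library of control descendants held high levels of maternal and early embryonic transcripts, given below. Results that rest on these libraries are given with and without them. The sums of 10 markers of somatic larval tissue lay between 1505 and 5958 CPM in the 39 libraries. The lowest was that of starved LC14 of short-term dauer descendants, and the next lowest was 2176 CPM in fed LC13 of that ancestry.

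Levels are given in CPM, reads scaled to a common library size after TMM normalization, and per kilobase of annotated exon where genes are set beside each other. On the per-kilobase scale glh-1 was the most abundant of the 10 transcripts in fed larvae, at 24.6 ± 3.02 CPM per kb (SD, n = 11), and pgl-1 came next at 16.1 ± 1.90 CPM per kb. The levels of deps-1 (5.40 ± 0.389 CPM per kb), glh-4 (4.69 ± 0.484), pgl-3 (3.83 ± 0.521) and glh-2 (3.02 ± 0.244) followed. The lowest were nos-1 (1.91 ± 0.719 CPM per kb), meg-1 (0.912 ± 1.01), nos-2 (0.801 ± 0.737) and meg-2 (0.609 ± 0.415), and the last 3 did not differ beyond their spread. Ranges of neighbours in this order overlapped, except those of pgl-1 and deps-1. In the 13 starved libraries of batch 1 glh-1 (12.9 ± 3.31 CPM per kb) and pgl-1 (6.40 ± 2.33) again led. There glh-4 (4.43 ± 0.318), deps-1 (3.85 ± 0.791) and glh-2 (3.69 ± 0.631) stood within a narrow band, above nos-1 (2.89 ± 1.01) and pgl-3 (1.93 ± 0.824). The plot of levels by library shows each value.

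**Figure D1:**
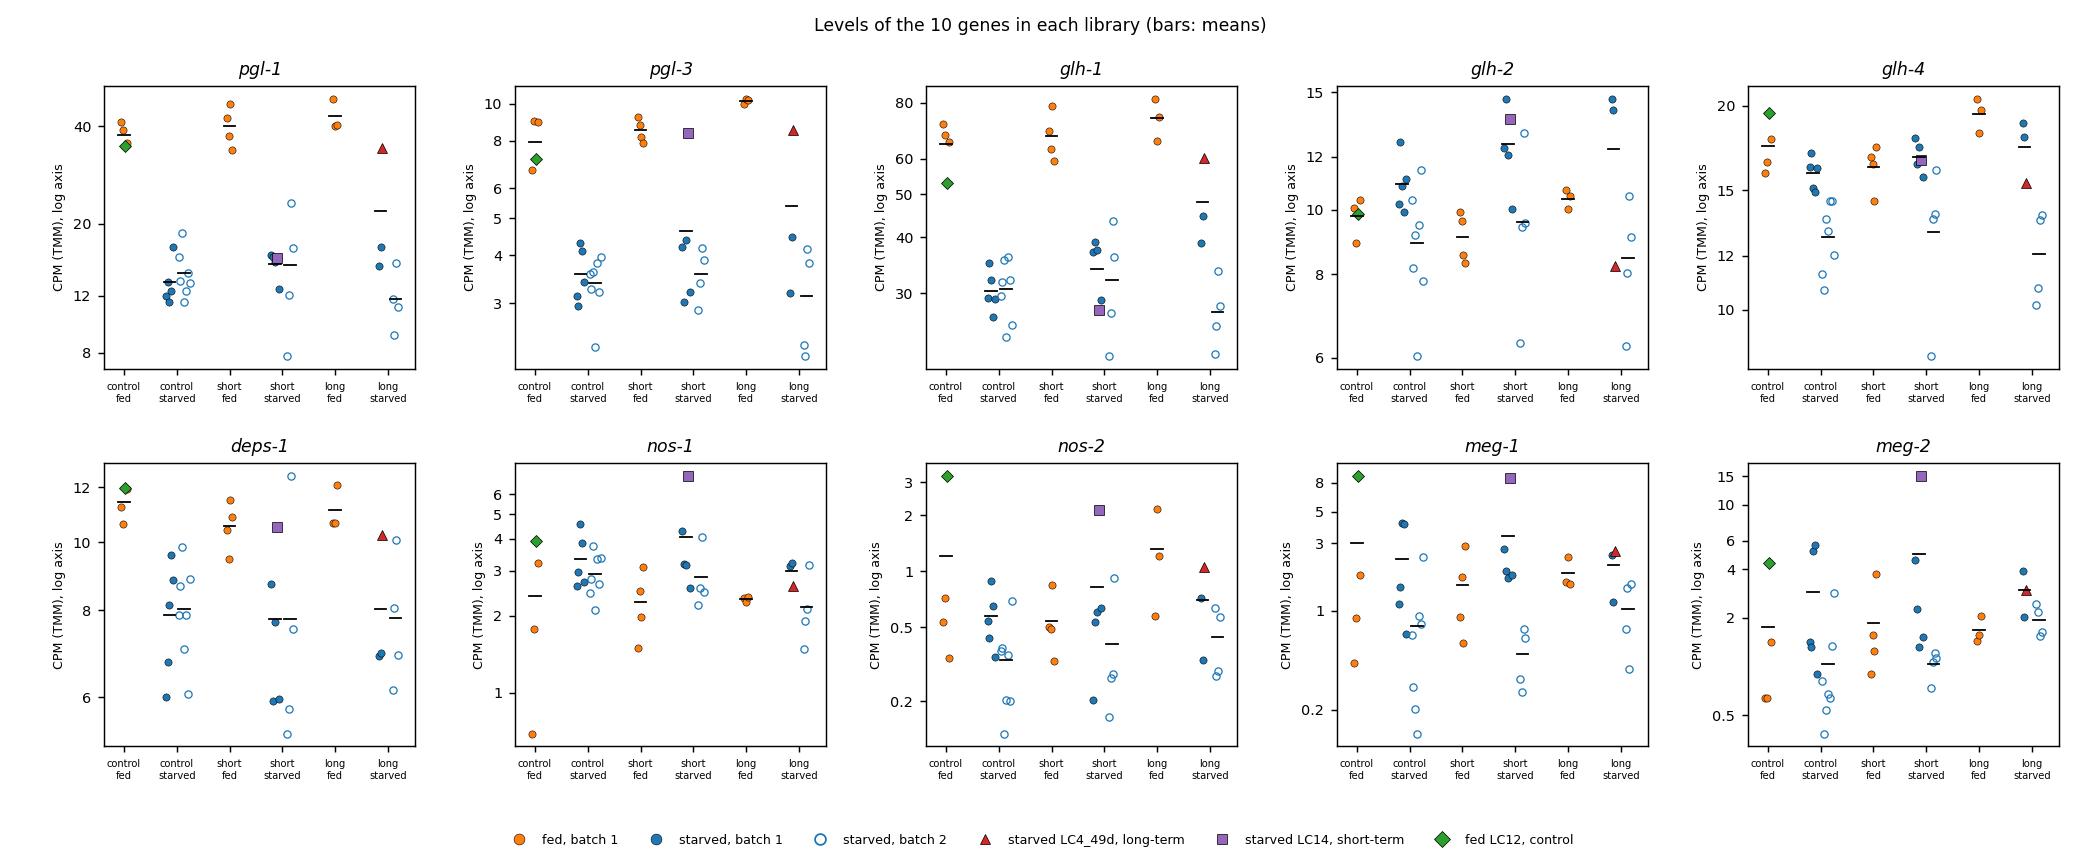
CPM (log axis) of each of the 10 genes in every library, by ancestry and feeding. Filled circles are batch 1, open circles batch 2, bars the group means, and the 3 libraries that stood apart have their own symbols. The fed libraries lie above the starved ones for pgl-1 and glh-1 in each ancestry, whereas meg-1, meg-2 and nos-2 are spread widely within groups.

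The question whether feeding changed these transcripts was asked within each ancestry, in the 24 libraries of batch 1. In control descendants pgl-1, pgl-3, glh-1 and deps-1 rose on feeding and none of the 10 fell at an adjusted p-value under 0.05. Among all 19406 genes tested, 53.7% were called in either direction and 28.7% as higher and 25% as lower in fed larvae, which is the background of the 4 members called. The median log2 fold change was 0.44 over the 10 genes and -0.15 over all those tested. In short-term dauer descendants pgl-1, pgl-3 and glh-1 rose and glh-2 and nos-1 fell, 5 of 10 against 58.3% of all genes in either direction, 28% higher and 30.2% lower. There the median was -0.45 over the 10 genes and -0.28 over all those tested. In long-term dauer descendants pgl-1 and glh-1 rose, 2 of 10 against 12.1% of all genes (5.81% higher and 6.33% lower), and medians were 0.28 and -0.09. Without starved LC4_49d, 5 of the 10 were called in long-term dauer descendants, 4 higher and 1 lower, against 38.9% of all genes (24% higher and 14.9% lower), while 4 and 5 were called in control and short-term dauer descendants against 51.9% (28% higher, 23.9% lower) and 57.3% (27.7% higher, 29.7% lower). With scaling by library totals alone, 2, 6 and 1 members were called in the 3 ancestries, of which 4 were lower after short-term dauer and none in the others. Over all genes that scaling gave 4287 higher and 6169 lower in control descendants (5571 and 4845 with TMM), 3656 and 9343 after short-term dauer (5434 and 5870 with TMM), and 882 and 2546 after long-term dauer (1128 and 1228 with TMM). Since these are whole larvae, fewer or more germ cells and less or more RNA per germ cell cannot be told apart.

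The scaffold gene pgl-1 had the highest log2 fold change of the 10 genes in each ancestry. In control descendants pgl-1 stood at 41.3, 39.0, 34.7 and 35.6 CPM in the fed libraries LC10, LC11, LC12 and LC14, and at 12.0, 13.2, 11.5, 12.4 and 17.0 CPM in the starved libraries LC10, LC11, LC12, LC14 and LC6. All fed values lay above all starved ones, and the fold change was 2.70 (log2 1.43, SE 0.18, edgeR adjusted p = 6.49e-06). Short-term dauer descendants had 42.5, 37.3, 46.9 and 33.8 CPM in fed LC11, LC12, LC13 and LC14, and 16.002, 15.8, 15.3, 15.7 and 12.6 CPM in starved LC11, LC12, LC13, LC14 and LC6. The groups again did not overlap, and pgl-1 was 2.33-fold higher in fed larvae (log2 1.22, SE 0.18, edgeR adjusted p = 1.4e-05). Long-term dauer descendants had 48.7, 40.1 and 40.4 CPM in fed LC3_40d, LC3_49d and LC4_49d, and 14.8, 16.9 and 34.2 CPM in the starved libraries of the same names. The third starved value stood close to the fed range, and the log2 fold change was 0.95 (SE 0.22, edgeR adjusted p = 0.0173), or 1.4001 (SE 0.18, edgeR adjusted p = 1.3e-06) without that library.

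The transcript of pgl-3, which encodes another constitutive scaffold protein, was less abundant. It stood at 6.70, 9.02, 7.16 and 8.95 CPM in fed and 3.13, 2.94, 4.30, 4.10 and 3.40 CPM in starved control descendants, in the same order of libraries. The ranges did not overlap, and the log2 fold change was 1.09 (SE 0.27, edgeR adjusted p = 0.00162). With scaling by library totals alone, which moved the median of all genes to -0.41, it was 0.81 (adjusted p = 0.06). In short-term dauer descendants the fed libraries had 9.21, 8.78, 8.17 and 7.90 CPM and the starved ones 4.21, 3.02, 4.38, 8.36 and 3.22 CPM. The starved value inside the fed range was that of LC14: the log2 fold change was 0.65 (SE 0.27, edgeR adjusted p = 0.0427) with it and 1.04 (SE 0.21, adjusted p = 0.00026) without it. That call was lost on leaving out any of 9 other libraries, with a lowest value of 0.51, and by library totals alone (log2 0.11, adjusted p = 0.79). Long-term dauer descendants had 9.96, 10.3 and 10.2 CPM in fed and 3.18, 4.47 and 8.55 CPM in starved libraries, a log2 fold change of 0.89 that missed the threshold (SE 0.33, edgeR adjusted p = 0.067) and was 1.37 (adjusted p = 0.0015) without starved LC4_49d.

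Of the 3 GLH helicase genes, glh-1 was called higher in fed larvae in each ancestry, glh-2 lower in 1 and glh-4 in none. The level of glh-1 was 71.9, 67.8, 53.0 and 65.6 CPM in fed and 29.3, 35.03, 32.0, 26.6 and 29.1 CPM in starved control descendants, 2.02-fold higher in fed larvae (log2 1.01, SE 0.13, edgeR adjusted p = 6.49e-06). It was 69.1, 63.2, 78.9 and 59.3 CPM in fed and 37.1, 39.0, 37.6, 27.5 and 28.9 CPM in starved short-term dauer descendants (log2 0.81, SE 0.13, edgeR adjusted p = 2.56e-05). In both ancestries every fed library lay above every starved one. Fed long-term dauer descendants had 81.8, 65.7 and 74.5 CPM and starved ones 38.9, 44.7 and 60.3 CPM, the last in LC4_49d. The log2 fold change was 0.59 (SE 0.16, edgeR adjusted p = 0.0272), 0.78 (adjusted p = 0.00035) without that library, and 0.37 (adjusted p = 0.098) by library totals alone. The calls of both pgl-1 and glh-1 in long-term dauer descendants were lost when any of the other 5 libraries of that ancestry was left out.

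The paralogue glh-2 was on average lower in fed than in starved larvae in each ancestry. It stood at 10.05, 8.93, 9.84 and 10.4 CPM in fed and 10.2, 12.6, 10.8, 9.91 and 11.1 CPM in starved control descendants, overlapping ranges with a log2 difference of -0.23 that missed the threshold (SE 0.15, edgeR adjusted p = 0.214). In short-term dauer descendants the fed libraries had 9.91, 9.61, 8.56 and 8.31 CPM, all below the starved ones at 12.4, 14.6, 12.1, 13.7 and 10.03 CPM. There glh-2 fell by 0.66 on the log2 scale (SE 0.16, edgeR adjusted p = 0.00117). Long-term dauer descendants had 10.7, 10.01 and 10.5 CPM in fed and 14.7, 14.1 and 8.24 CPM in starved libraries, so that only starved LC4_49d lay below the fed range. The log2 difference was -0.29 (SE 0.19, edgeR adjusted p = 0.282) with it and -0.51 (SE 0.16, adjusted p = 0.012) without it. The third helicase gene, glh-4, ranged from 14.5 to 20.5 CPM in fed and from 14.9 to 18.8 CPM in starved libraries of batch 1. Its log2 differences of 0.06 in control descendants, -0.24 after short-term and 0.12 after long-term dauer missed the threshold (edgeR adjusted p = 0.636, 0.0651 and 0.516), and the signs of the first and last turned by library totals alone, to -0.19 and -0.13. The difference after short-term dauer was called by library totals (-0.65, SE 0.18, edgeR adjusted p = 0.00419) and without the 3 libraries that stood apart (-0.22, SE 0.08, adjusted p = 0.0227).

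The gene deps-1 had 11.2, 10.6, 12.0 and 11.9 CPM in fed and 6.01, 6.75, 8.12, 9.60 and 8.82 CPM in starved control descendants, which did not overlap. It was 1.39-fold higher in fed larvae (log2 0.48, SE 0.17, edgeR adjusted p = 0.0253). The call was lost without fed LC12 (log2 0.43), fed LC14 (0.46), starved LC10 (0.40) or starved LC11 (0.43), and by library totals alone (log2 0.22, adjusted p = 0.48). In short-term dauer descendants the ranges overlapped, from 9.46 to 11.5 CPM in fed and from 5.94 to 10.5 CPM in starved libraries. The log2 difference was 0.24 (SE 0.18, edgeR adjusted p = 0.238), 0.43 without starved LC14 (SE 0.15, adjusted p = 0.0208), which is a call, and -0.24 by library totals. In long-term dauer descendants the fed range, 10.6 to 12.1 CPM, lay above the starved one, 6.87 to 10.2 CPM, with a log2 difference of 0.44 (SE 0.21, edgeR adjusted p = 0.153) that passed the threshold without starved LC4_49d (0.65, SE 0.22, adjusted p = 0.0227). Of its exon bases 5.33% overlap Y65B4BL.7 on the opposite strand, and since the libraries do not keep the strand, reads there cannot be told apart.

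**Figure D2:**
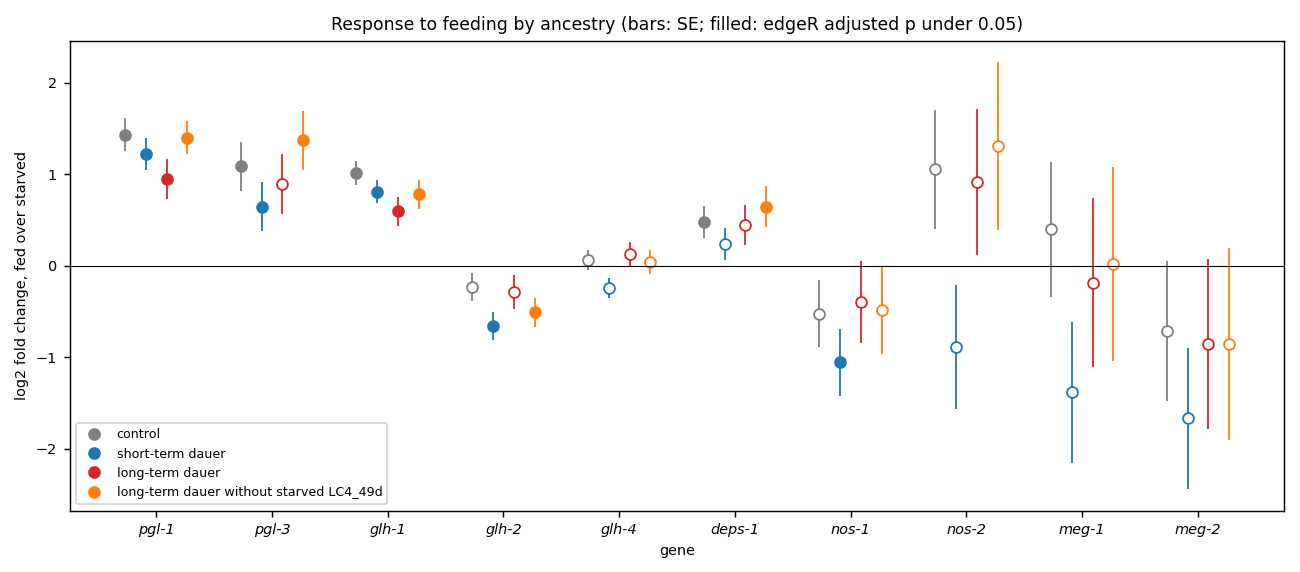
Log2 fold change of fed over starved larvae for the 10 genes in each ancestry, with long-term dauer descendants shown with and without the starved LC4_49d library. Bars are standard errors derived from the test statistic, and filled points passed an edgeR adjusted p under 0.05. Filled points stand above 0 for pgl-1, pgl-3, glh-1 and deps-1 and below 0 for glh-2 and nos-1, and the standard errors of nos-2, meg-1 and meg-2 are several times those of pgl-1.

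A ratio of 2 genes counted in the same library does not depend on library scaling, so paralogues were also compared as log2 count ratios, with two-sided exact permutation tests adjusted over the 12 ratio tests run. The ratio of glh-1 to glh-2 was 2.71 ± 0.218 (SD, n = 4) on the log2 scale in fed and 1.47 ± 0.0702 (SD, n = 5) in starved control descendants, 6.55 against 2.78 reads of glh-1 for each read of glh-2. The ranges, 2.43 to 2.92 and 1.39 to 1.56, did not overlap, and the difference was 1.24 (exact permutation p = 0.00794, adjusted p = 0.0476). The first p is the smallest this design can give. Short-term dauer descendants had 2.89 ± 0.215 in fed and 1.43 ± 0.253 in starved larvae, also without overlap, a difference of 1.45 (exact permutation p = 0.00794, adjusted p = 0.0476). In long-term dauer descendants the ratio was 2.93, 2.71 and 2.83 in fed libraries and 1.41, 1.66 and 2.87 in starved libraries, the last in LC4_49d. The difference was 0.84 (exact permutation p = 0.3, where 3 against 3 libraries cannot go below 0.1) and 1.29 without that library. Leaving out any 1 of the 9 libraries in control or short-term dauer descendants kept the difference between 1.17 and 1.51 but lost the adjusted call, since fewer arrangements remain. The 15 starved libraries of batch 2 had ratios of 1.48 to 1.98, all below every fed library.

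The ratio of pgl-1 to pgl-3 was higher in fed larvae by 0.37 in control descendants, 0.43 after short-term and 0.03 after long-term dauer, and ranges overlapped in each (exact permutation adjusted p = 0.3, 0.3 and 0.764). Differences in the ratio of nos-1 to nos-2 were -1.28, -0.53 and -1.20, and those of meg-1 to meg-2 were 0.59, -0.08 and 0.67, none past the threshold, with adjusted p-values of 0.3 to 0.849 in the exact permutation tests. Since glh-1 and glh-2 are close paralogues, the part of shared reads in their ratio was not tested. The deposited summary lists 0 such reads as aligned to several places in every library, and the treatment of shared reads before counting is not given in the sources used here.

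**Figure D3:**
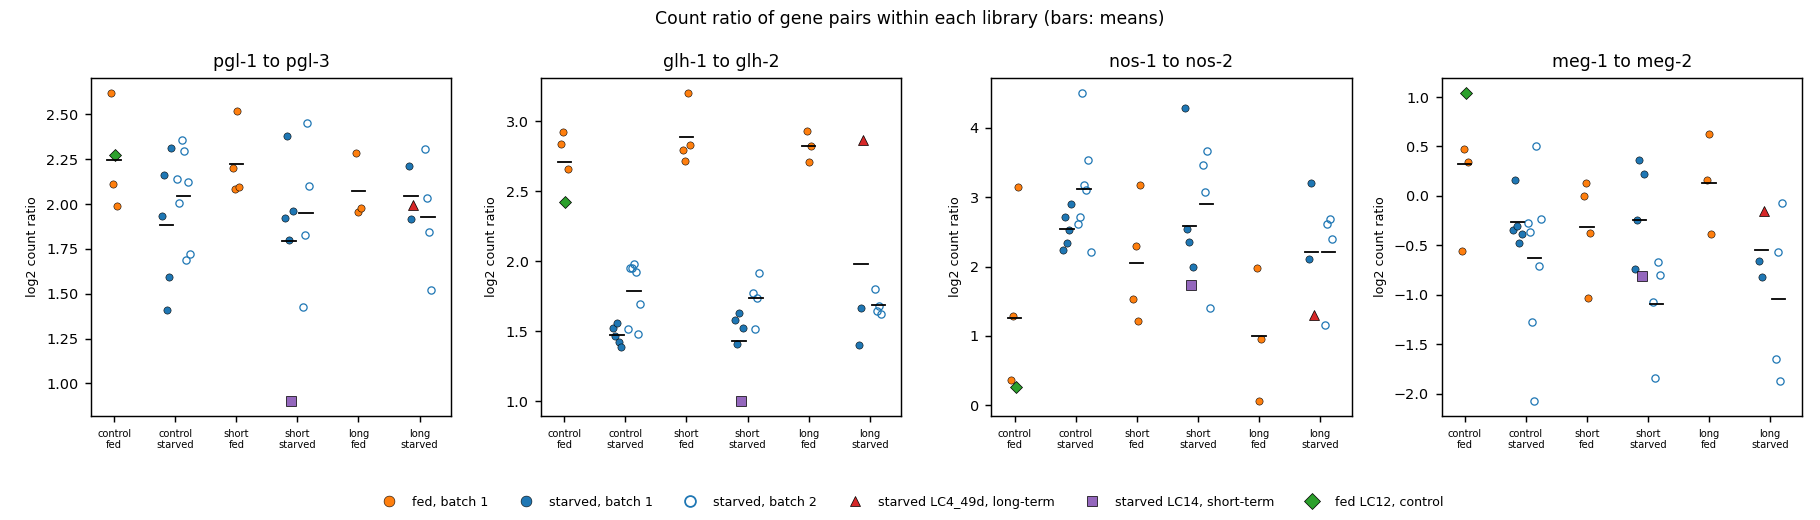
Log2 count ratio of 4 gene pairs in every library, by ancestry and feeding, with the symbols of the plot of levels. For glh-1 to glh-2 the fed libraries lie above 2.4 and the starved ones below 2, except starved LC4_49d at 2.87. The other pairs overlap.

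Of the Nanos genes, which keep primordial germ cells arrested without food, nos-1 was the more abundant. It stood at 0.691, 1.78, 3.91 and 3.21 CPM in fed and 2.62, 2.98, 4.56, 3.85 and 2.71 CPM in starved control descendants. The ranges overlapped, and the log2 difference of -0.52 missed the threshold (SE 0.37, edgeR adjusted p = 0.232). Among the control descendants, fed and starved libraries of the same number deviated together over the genes that passed the filter on low counts. With that number as a block nos-1 fell by 0.78 (SE 0.30, edgeR adjusted p = 0.034). Those blocks also joined control and short-term dauer libraries of the same number, whose deviations had r of -0.34 to 0.64. In short-term dauer descendants the fed libraries had 1.49, 2.50, 1.98 and 3.11 CPM and the starved ones 4.31, 3.20, 3.17, 7.07 and 2.58 CPM. There nos-1 fell by 1.05 on the log2 scale (SE 0.37, edgeR adjusted p = 0.0189), and the highest value was that of starved LC14. Without it the difference was -0.69 (adjusted p = 0.091), and the call was also lost without fed LC11 (-0.90) or fed LC13 (-0.99). Long-term dauer descendants had 2.35, 2.26 and 2.38 CPM in fed libraries, all below the starved ones at 3.14, 3.21 and 2.62 CPM, with a log2 difference of -0.40 (SE 0.45, edgeR adjusted p = 0.539).

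The Nanos gene nos-2 had 0.134 to 3.25 CPM over the 39 libraries and, per kilobase, the lowest mean of the 10 genes (0.531 CPM per kb). In control descendants it had 0.532, 0.722, 3.25 and 0.340 CPM in fed and 0.541, 0.437, 0.882, 0.652 and 0.344 CPM in starved libraries. Its log2 difference of 1.06 (SE 0.65, edgeR adjusted p = 0.174) turned to -0.18 without fed LC12. The differences of -0.89 in short-term and 0.91 in long-term dauer descendants also missed the threshold (SE 0.67 and 0.80, edgeR adjusted p = 0.252 and 0.424), and the former was -0.04 (SE 0.63, adjusted p = 0.959) without starved LC14. Of its exon bases 12.4% overlap him-14 on the opposite strand, and there too reads of the 2 strands cannot be told apart.

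The germ plasm genes meg-1 and meg-2, whose products act in the early embryo, varied widely between libraries of a group. In control descendants meg-1 had 0.425, 0.889, 8.97 and 1.80 CPM in fed and 1.11, 1.47, 4.19, 4.07 and 0.689 CPM in starved libraries, and meg-2 had 0.638, 0.635, 4.36 and 1.41 CPM in fed and 1.41, 1.31, 5.18, 5.65 and 0.904 CPM in starved ones. LC12 was the highest fed library for both genes, and LC12 and LC14 the highest starved ones. In starved short-term dauer descendants the same 2 genes reached 8.61 and 15.1 CPM in LC14, against 1.70 to 2.72 and 1.32 to 4.55 CPM in the other 4 libraries of batch 1. Log2 differences between fed and starved larvae were 0.40, -1.38 and -0.18 for meg-1 and -0.71, -1.67 and -0.85 for meg-2 in the 3 ancestries in the order above, none past the threshold, with edgeR adjusted p-values of 0.0693 to 0.901. Without starved LC14 the differences after short-term dauer were -0.55 for meg-1 (SE 0.72) and -0.50 for meg-2 (SE 0.64). Without the 3 libraries that stood apart meg-2 fell by 1.81 in control descendants (SE 0.67, adjusted p = 0.025), while meg-1 differed by -1.26 (SE 0.60, adjusted p = 0.072). Without the same libraries 6 of the 10 genes were called in control descendants, 4 higher and 2 lower. Of all genes 65.2% were called there, 31.5% higher and 33.7% lower. After short-term dauer 7 were called, 4 higher and 3 lower (58.1% of all genes, 30.3% higher and 27.8% lower). After long-term dauer 5 were called, 4 higher and 1 lower (52% of all genes, 28.3% higher and 23.7% lower).

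Markers of the early embryo were highest in the libraries with the highest Nanos and MEG levels. The summed CPM of nos-1, nos-2, meg-1 and meg-2 was highest in starved LC14 of short-term dauer descendants (32.9), fed LC12 (20.5), starved LC12 (14.8) and starved LC14 (14.2) of control descendants, and starved LC11 of short-term dauer descendants (11.8). The same 5 libraries had the highest sums of the 8 zygotic markers of the early embryo, at 13.4, 10.9, 6.32, 5.34 and 4.62 CPM, against 0.532 to 3.50 CPM in the other libraries. Of those 8 markers tbx-35 was at 0 in 22 of 39 libraries, and med-2 was above 0 in all. Starved LC14 of short-term dauer descendants also led the 15 markers of adults, oocytes and sperm, with 102.4 CPM against 13.7 to 40.8 CPM in all others, and its yolk genes summed to 32.7 CPM against 1.60 to 4.82. In fed LC12 of control descendants the adult sum was 34.8 CPM, inside the range of other fed libraries (30.4 to 40.8), while pos-1, a maternal regulator, stood at 39.6 CPM against 2.18 to 13.8 in them. The part of embryos, eggs or adults in the levels of these 4 genes was not tested. The median embryo marker sum of batch 1 was 1.54 CPM in fed and 3.03 CPM in starved libraries.

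**Figure D4:**
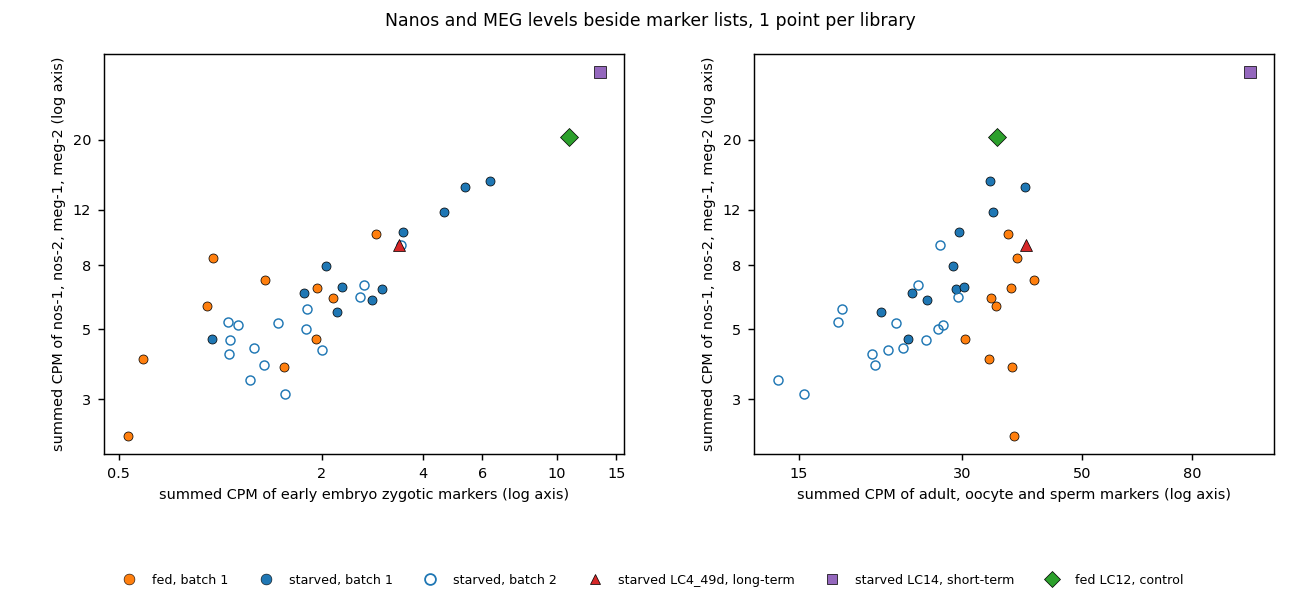
Summed CPM of nos-1, nos-2, meg-1 and meg-2 (log axis) against the summed CPM of early embryo markers (left, log axis) and of adult, oocyte and sperm markers (right, log axis), 1 point per library. Starved LC14 of short-term dauer descendants and fed LC12 of control descendants hold the 2 highest values on the vertical axis and on the embryo axis, and only the former stands apart on the adult axis.

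Whether the response to feeding depended on ancestry was tested by interaction contrasts. No member passed an adjusted p of 0.05 when either dauer ancestry was set against control descendants, short-term first, and edgeR called 0% of all genes in both. At an unadjusted p under 0.05 there were 439 and 1738 genes, with 1 member in each. These were nos-2 with a difference of -1.94 (SE 0.94, unadjusted p = 0.0497 and adjusted p = 1 in edgeR), and glh-1 with -0.42 (SE 0.20, unadjusted p = 0.0499 and adjusted p = 0.557). Without fed LC12 of control descendants, or without starved LC14 of short-term dauer descendants, no member reached an unadjusted p under 0.05 in the first contrast. Without starved LC4_49d 3 members did there (752 genes), and 1 did without the 3 libraries together (986 genes). In the second contrast none did without starved LC4_49d. There 1 member did without fed LC12 (1793 genes), and 1 without starved LC14 (2125 genes). For pgl-1 the response differed from that of control descendants by -0.21 (SE 0.26) after short-term and -0.48 (SE 0.28) after long-term dauer. The calls of glh-2 and nos-1 in short-term dauer descendants and not in control descendants are therefore not shown to differ between them (interaction -0.43, SE 0.22, and -0.53, SE 0.51). DESeq2 called 0 and 34 genes in these contrasts, and limma voom with sample weights called 0 in both, with no member in either.

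Ancestries were also compared within each feeding state. In the 28 starved libraries, with batch as a term, edgeR called 0% of 15980 genes and none of the 9 members tested in long-term dauer against control, short-term dauer against control and long-term against short-term dauer descendants. There nos-2 did not pass the filter on low counts. At an unadjusted p under 0.05 there were 2079, 235 and 1628 genes, and DESeq2 called 6, 0 and 4. Differences of the 9 members lay between -0.32 and 0.54, 0.06 and 0.73, and -0.56 and 0.04 on the log2 scale. The widest of these was meg-2 in short-term dauer against control descendants (0.73, SE 0.48), and the lowest unadjusted p was that of nos-1 in long-term against short-term dauer descendants (-0.56, SE 0.24, unadjusted p = 0.028 and adjusted p = 0.441 in edgeR). The short-term dauer libraries included starved LC14, with 15.1 CPM of meg-2. Without starved LC14 and starved LC4_49d, 473, 157 and 246 genes reached an unadjusted p under 0.05 in the same comparisons. No member was among them, nos-1 included. Starved levels of pgl-1 in batch 2 were 14.1 ± 2.43 CPM (SD, n = 7) in control, 14.97 ± 6.59 CPM (SD, n = 4) in short-term and 11.7 ± 2.53 CPM (SD, n = 4) in long-term dauer descendants, groups that overlapped. Levels of meg-1 were lower in batch 2 (median 0.669 CPM, n = 15) than in starved libraries of batch 1 (median 1.92 CPM, n = 13), and those of pgl-1 were 13.2 and 15.3 CPM.

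Among the 11 fed libraries edgeR called 0% of 16132 genes and none of the 10 members in the same 3 comparisons, with 706, 826 and 411 genes at an unadjusted p under 0.05. DESeq2 called 13, 21 and 17. The scaffold gene pgl-3 stood at 9.96 to 10.3 CPM in long-term dauer descendants, above all control (6.70 to 9.02 CPM) and short-term dauer libraries (7.90 to 9.21 CPM). Its log2 differences were 0.35 (SE 0.12, unadjusted p = 0.014 and adjusted p = 0.932 in edgeR) and 0.29 (SE 0.12, unadjusted p = 0.0341 and adjusted p = 1). The other member at an unadjusted p under 0.05 was glh-4 in long-term against short-term dauer descendants (0.29, SE 0.11, unadjusted p = 0.0239 and adjusted p = 1 in edgeR). The fed libraries after long-term dauer came from lane 4 and those after short-term dauer from lane 5, so lane and ancestry cannot be told apart between these 2 groups. Under library totals none of the members reached an unadjusted p under 0.05 among fed larvae. Without fed LC12 of control descendants 3, 0 and 3 members did so in the 3 comparisons, beside 724, 758 and 628 of 15876 genes. None of these was called after adjustment.

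Other genes of the germline were described by lists. Of 15 other germ granule components, 10 rose on feeding in control descendants and none fell, with a median log2 fold change of 0.77 against -0.15 over all genes, of which 28.7% were called higher and 25% lower. The 2 with the highest rise were prg-1, the Piwi Argonaute (77.5 ± 5.47 CPM, n = 4, in fed and 19.5 ± 1.08, n = 5, in starved larvae, SD; log2 1.92, SE 0.22, edgeR adjusted p = 5.94e-06), and wago-4, an Argonaute of Z granules (log2 1.55, SE 0.31, edgeR adjusted p = 0.00027). After short-term dauer 9 rose and 2 fell, glh-3 (log2 -0.91, SE 0.21, edgeR adjusted p = 0.000953) and meg-3 (-0.96, SE 0.29, adjusted p = 0.00718), a GLH helicase gene and a granule scaffold gene of the embryo named after their values were seen, and after long-term dauer 1, prg-1, rose and none fell. Without starved LC4_49d, 9 rose and 1 fell in the last. By library totals alone 10, 3 and 2 rose, and 3 fell after short-term dauer and none in the others. Without the 3 libraries that stood apart 11, 10 and 10 rose and 3, 2 and 1 fell in the 3 ancestries. Of all genes 31.5%, 30.3% and 28.3% were then called higher and 33.7%, 27.8% and 23.7% lower.

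Of 14 genes of germ cell fate and proliferation, 12 rose in control descendants, 7 in short-term and none in long-term dauer descendants (10 without starved LC4_49d), and none fell. The most responsive were lag-2, the Notch ligand of the germline niche, at 18.5 ± 4.51 CPM in fed control descendants (SD, n = 4) against 2.37 ± 0.375 CPM without food (SD, n = 5) (log2 2.89, SE 0.44, edgeR adjusted p = 2.12e-05), and gld-1, a regulator of translation in germ cells (log2 1.99, SE 0.32, edgeR adjusted p = 2.62e-05). The median log2 fold changes of the 14 genes were 0.87, 0.56 and 0.52 in the 3 ancestries, against -0.15, -0.28 and -0.09 over all genes. Of all genes 28.7%, 28% and 5.81% were called higher. By library totals 8, 4 and none rose and none, 1 and none fell.

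Of 9 maternal regulators of germ plasm RNA, 4 rose in control descendants, among them spn-4 (log2 2.46, SE 0.42, edgeR adjusted p = 5.77e-05) and oma-1 (log2 1.58, SE 0.57, edgeR adjusted p = 0.0229). The fed values of oma-1, 5.73 ± 5.87 CPM (SD, n = 4), were spread by LC12 at 14.5 CPM. Without the 3 libraries that stood apart, 2 of the 9 rose and 1 fell. In short-term dauer descendants 2 rose and 1 fell, and in long-term dauer descendants none was called, or 2 rose without starved LC4_49d. Of all genes 28.7%, 28% and 5.81% were called higher in the 3 ancestries with every library kept.

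**Figure D5:**
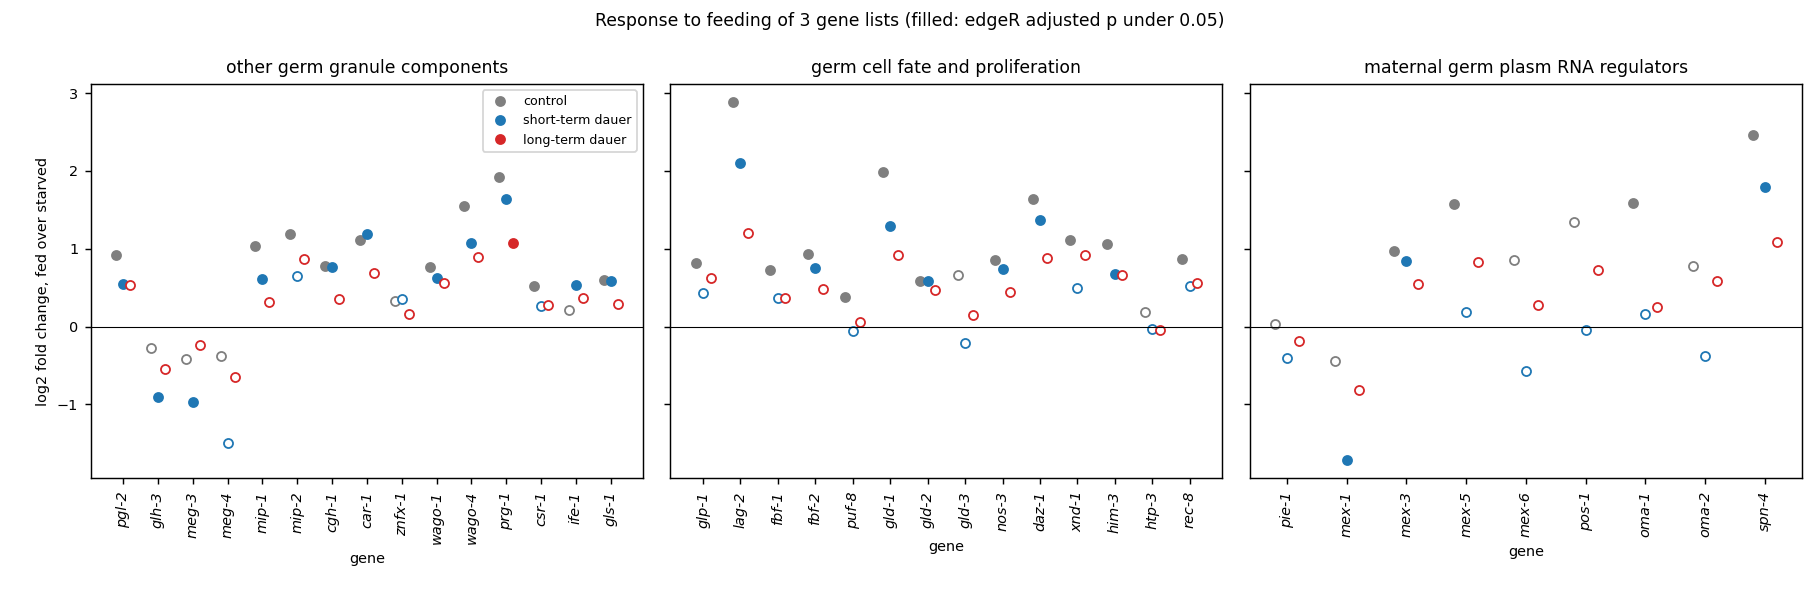
Log2 fold change of fed over starved larvae for each gene of 3 lists, with a colour for each ancestry. Filled points passed an edgeR adjusted p under 0.05. Most genes of the first 2 lists stand above 0, while glh-3, meg-3 and meg-4 stand below it in each ancestry.

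Chromatin factors and repressors that bear on germline genes were counted the same way. Of all genes 28.7%, 28% and 5.81% were called higher in the 3 ancestries, and 25%, 30.2% and 6.33% lower. Of 7 germline chromatin factors, 4 rose and 1 fell in control descendants and in short-term dauer descendants, and 1 rose in long-term dauer descendants. They included mes-4, a histone methyltransferase of germline genes (log2 1.51, SE 0.20, edgeR adjusted p = 6.67e-06), and mrg-1 (0.86, SE 0.17, adjusted p = 0.000178), which rose, and mes-3 (-0.64, SE 0.15, adjusted p = 0.00105), which fell. Of 15 somatic repressors of germline genes 10, 9 and 1 rose in the 3 ancestries and none fell, led by lin-53 (log2 1.89, SE 0.27, edgeR adjusted p = 8.44e-06) and lin-35, the Rb homologue (1.29, SE 0.22, adjusted p = 3.68e-05). By library totals 8, 6 and 1 of these rose and 3 fell in short-term dauer descendants. Without starved LC4_49d, 9 of these repressors rose after long-term dauer, and of the chromatin factors 3 rose and 1 fell. By library totals 2, 2 and none of the chromatin factors rose and 2 fell in each ancestry. Without the 3 libraries that stood apart 5, 4 and 4 of the chromatin factors rose and 2, 2 and 1 fell. Of the repressors 11, 10 and 10 then rose and none fell. Of 6 autophagy genes that remove PGL granules from somatic cells of the embryo, epg-3 rose (log2 0.58, SE 0.16) and lgg-1 (-0.91, SE 0.20) and epg-4 (-0.55, SE 0.15) fell in control descendants, with edgeR adjusted p-values of 0.0033, 0.000494 and 0.00347.

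The other lists were markers. Of the 15 adult, oocyte and sperm markers 11 passed the filter on low counts. In control descendants cbd-1 rose (log2 1.33, SE 0.28, edgeR adjusted p = 0.000325) and rme-2 fell (-0.73, SE 0.26, adjusted p = 0.0215), and in short-term dauer descendants 1 rose and 7 fell, or 1 and 4 of 12 tested without the 3 libraries. Of the 8 early embryo markers 6 were tested, and none rose while 1, 2 and 1 fell in the 3 ancestries. Without the 3 libraries 5 were tested, and none rose while 3, 2 and 1 fell. Of 10 somatic markers 9 were tested. There lin-26 rose (log2 0.94, SE 0.18, edgeR adjusted p = 0.000134) and myo-2 fell (-1.03, SE 0.25, adjusted p = 0.00136) in control descendants, in which 1 gene rose and 1 fell, against 1 and 2 in short-term dauer descendants. By library totals 1 rose and 6 fell in the former and 1 rose and 7 fell in the latter, and without the 3 libraries 2 rose and 4 fell, and 2 rose and 5 fell.

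The genes with the pattern most like a member's were found by Pearson's r of log2 CPM over the 24 libraries of batch 1, which hold both feeding states and share a batch, among 19406 genes. For pgl-1 they were mdt-9 (r = 0.976), ppw-2 (0.974) and cyn-11 (0.974), and for glh-1 and pgl-1 with each other r was 0.959. For nos-2 they were mei-2 (r = 0.889), ZC308.4 (0.833) and try-1 (0.825). For meg-1 they were T06D4.1 (r = 0.934), B0261.6 (0.907) and T05D4.2 (0.901). With group means taken out, r between meg-1 and meg-2 was 0.908 and that between pgl-1 and glh-1 was 0.662, against 0.887 and 0.959 with group means kept.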

How the data were processed

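The deposited files hold raw read counts per gene for each of 39 libraries. Per the submitters' processing notes, Bowtie 1.1.2, HTSeq and edgeR were used, and the genome build, annotation and counting options are not given in the sources used here. Per the labels' protocols the library kit was non-directional. Gene names, exon lengths and exon overlaps came from the Ensembl annotation and its coordinates, in which 44442 of 44968 features matched; no coordinates or sequences are printed. Summary rows of the counting program stayed out of all totals; reads outside genes were 1.75% to 12.6% in batch 1 and 3.48% to 4.58% in batch 2. No within-group pair of libraries agreed within sampling noise (lowest chi-square per degree of freedom 3.77 over 138 pairs).

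Counts were fitted with edgeR 4.0.16 in R 4.3.3 (TMM scaling, filter on low counts by group, robust quasi-likelihood test, Benjamini-Hochberg adjustment over all genes tested, threshold 0.05). Feeding was tested in batch 1 over all 6 groups, and ancestry in starved larvae with batch as a term. Standard errors (SE) were derived from that test, as the absolute log2 fold change over the square root of its F statistic. Paralogue ratios used a pseudocount of 0.5. The procedure was tested on simulated data. Among control descendants, fed and starved libraries with the same number deviated together (r = 0.183 to 0.450 over 4 pairs). For these descendants a fit with that number as a block, shared by libraries of all ancestries, is given where it changed a call. DESeq2 1.42.0, limma 3.58.1, other scaling, filters, sample sets, leaving out each library and leaving out 3 libraries together were alternatives.

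The members and lists were chosen with earlier results of these data known. The text names all members, up to 2 genes a list and direction with the largest called change in control descendants where the higher group averaged 1 CPM or more, and the 3 genes nearest in pattern to pgl-1, nos-2 and meg-1; others named were chosen after their values were seen.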

Additional observations from a re-analysis of the deposited data

Results flagged for a closer look

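Dixon's test over the 40 groups of member levels flagged 2, and chance would flag about 2. The level of pgl-3 in starved LC14 of short-term dauer descendants, 3.08 on the log2 CPM scale, lay far above the other starved libraries of that ancestry (1.57 to 2.16). The level of glh-4 in the starved library numbered 10 of batch 2 in the same ancestry, 3.11 on the log2 CPM scale, lay far below the others (3.78 to 4.17). Both groups pool the libraries of 2 batches.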

How the results depend on the processing

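Of the 10 genes, those called on feeding numbered 2 in control and 1 in long-term dauer descendants with library totals only, 7 and 5 with limma voom with sample weights, and in long-term dauer descendants 0 when only the 2 groups compared were fitted and 5 with the 3 libraries left out together; the last 2 alternatives changed the samples fitted, and the cause was not tested otherwise. Of all 19406 genes library totals called 10456 in control and 3428 in long-term dauer descendants. The total by voom is given below for long-term dauer descendants only. With the replicate block 5, 7 and 3 genes were called in the 3 ancestries, of which 4, 3 and 3 were higher and 1, 4 and none lower. Of all 19406 genes that fit called 11046, 11643 and 4869. The fall of nos-1 in control descendants is given above. Same-number libraries had r of -0.13 to 0.40 after short-term and -0.04 to 0.29 after long-term dauer, and whether they were paired was not tested. Leaving out 1 library gave 3 to 4, 3 to 6 and 0 to 5 calls. Among all genes it gave 9274 to 11674, 9597 to 11718 and 0 to 7929. Directions of differences that had not passed the threshold reversed for the log2 fold change of glh-4, fed versus starved, control descendants (-0.19 by library totals, -0.00909 by voom, -0.018 without 3 libraries, -0.017 to 0.10 on leaving out 1) and for glh-4 after long-term dauer (-0.13 by totals, -0.0083 without 3), deps-1 after short-term dauer (-0.24 by totals), nos-2 in control descendants (-0.20 without 3, -0.18 to 1.37 on leaving out 1), and meg-1 in control (-0.93 by voom, -0.13 with the block, -1.26 without 3, -1.20 to 0.76 on leaving out 1) and long-term dauer descendants (-0.46 to 0.016 on leaving out 1). The glh-1 to glh-2 ratio kept its direction in control and short-term dauer descendants but missed the threshold without 3 libraries (1.33 and 1.35) and over pairs with the block (1.22 and 1.48), where fewer arrangements cannot pass it; on leaving out 1 library it was 1.17 to 1.33 and 1.35 to 1.51 and missed the threshold in 9 of 9 runs in both, also with fewer arrangements. The pgl-1 to pgl-3 ratio after long-term dauer was -0.074 to 0.12 on leaving out 1 library, and meg-1 to meg-2 after short-term dauer -0.23 to 0.16, or 0.039 with the block. Ancestry and interaction contrasts gave 0 members under every alternative run. As to genes called, fed versus starved, long-term dauer descendants had 2356, against 4418 by DESeq2, 11782 by voom, 4869 with the block, 0 with 2 groups, 10106 without 3 libraries and 0 to 7929 on leaving out 1. Standard errors of nos-2, meg-1 and meg-2 were 0.65 to 0.93 on the log2 scale; the parts of counting error and of spread between libraries were not tested.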
